A study of Mus musculus with 86 samples.

Results

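Cd79b, Ms4a1 and Vpreb3 are genes of the B cell lineage. Each was represented by 1 probe, so the 3 genes account for 3 of the 20794 probes and 3 of the 9030 gene symbols on these mouse cDNA arrays, and they were found by the gene symbol in the array's annotation. The genes themselves had been chosen on the heterozygous over wild-type log2 ratios of these same arrays, so those ratios are given as a description, and no p-value of that comparison is attached to a member.

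CD79b (immunoglobulin beta) is the signalling partner of the B cell antigen receptor and is made from the precursor stage onward. CD20, the product of Ms4a1, is a surface protein of B cells up to the mature stage and is absent from plasma cells. VPREB3 is a protein of B cell precursors and B cells that is related to VpreB, a component of the surrogate light chain of the pre-B cell receptor. Dll1 encodes delta-like 1, a ligand of Notch receptors. In the mouse spleen, DLL1 acting through NOTCH2 is required for marginal zone B cells, which makes the spleen the organ where B cell genes are of most interest in this design.

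The study asked how loss of 1 copy of Dll1 alters gene expression in adult liver, spleen, thymus and brain, and whether the genetic background matters. Male mice that were heterozygous (+/-) for the targeted Dll1 allele (Dll1tm1Gos, a constitutive allele present in every cell) were compared with wild-type males of the same strain, either C3H at 15 weeks of age or 129SvJ/Iso at 16 weeks. On every 2-colour array, RNA of a heterozygous mouse was hybridised against an RNA pool of wild-type mice of that strain and organ (5 mice in C3H, 4 in 129SvJ/Iso), with the dyes Cy3 and Cy5 exchanged between arrays of a mouse. The 86 arrays fell into 8 groups. C3H liver, spleen, thymus and brain held 10, 9, 10 and 10 arrays of 5 mice, 129SvJ/Iso liver and brain held 12 and 14 arrays of 4 mice, and 129SvJ/Iso spleen held 15 arrays of 5 mice. The 129SvJ/Iso thymus group held 6 arrays of 1 pool of 4 heterozygous mice against the wild-type pool, with the pool's mice not listed for 1 of the arrays, and its arrays are technical repeats. All mice were compared with a single wild-type pool per organ and strain, so the spread among wild-type mice was not measured.

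All values below are log2 ratios, heterozygous over wild type, averaged within a mouse first over the arrays of 1 dye orientation, then over the pair of orientations. A mouse with values in only 1 orientation, although arrays of both existed, was not used in the means. The direction is the likely one. It was taken from genes that the study names as lower in heterozygous C3H liver and thymus, the only groups checked in this way. Of their probes, 12 of 13 in C3H liver and 16 of 19 in C3H thymus lay below 0. Across all probes, the opposite-dye arrays of a mouse correlated more closely than those of different mice in 5 of the 7 groups of single mice. In C3H spleen (-0.04 within a mouse, -0.02 between mice) and in 129SvJ/Iso brain (-0.11 for both) they did not. Values with the sign of the Cy5 arrays turned are therefore given beside those of these groups. They cover the members and the other B cell genes and lists named in them, except Btk and Dntt. The margin was small in 129SvJ/Iso spleen (0.001 within a mouse, -0.03 between mice) and in C3H brain (0.02 and -0.03). The direction therefore rests on little in these groups too, for which no turned values are given. Ratios carry no level, so neither the tissues nor the amount of B cell RNA in them could be checked. In these bulk organs a lower ratio from fewer B cells cannot be told apart from less RNA per B cell.

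The arrays of the strains differed in quality. Between 3.06% and 10.2% of the probe values of a C3H group were missing or extreme, against 21.9% to 26.96% in 129SvJ/Iso. Cd79b had a value on all 39 C3H arrays and lacked one on 14 of the 47 129SvJ/Iso arrays. Ms4a1 lacked a value on 3 C3H and 5 129SvJ/Iso arrays, and Vpreb3 on 0 and 6. All 3 probes had values in at least 3 mice, the minimum for a fit, in each group of single mice except Cd79b in 129SvJ/Iso liver.

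**Figure D1:**
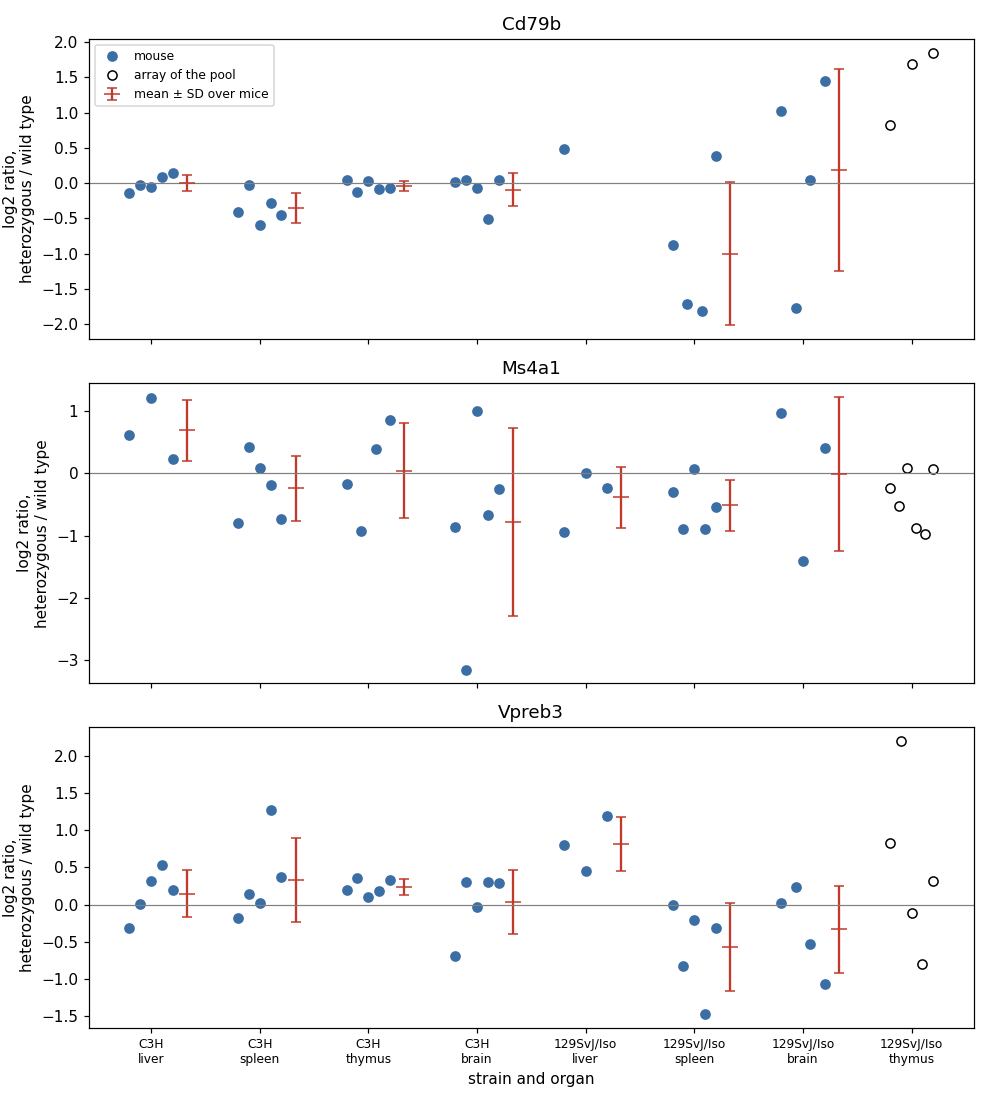
Log2 ratio (heterozygous over wild type, y axis) of Cd79b, Ms4a1 and Vpreb3 in each strain and organ (x axis). Filled points are mice, open points are the arrays of the 129SvJ/Iso thymus pool, and red bars are the mean ± SD over mice. Cd79b lay below 0 in all 5 C3H spleens and in 3 of 4 129SvJ/Iso spleens, and its C3H points lie closer together than its 129SvJ/Iso points.

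The Cd79b ratios lay below 0 in the spleens of heterozygous C3H mice and near 0 in most other C3H organs. In C3H spleen its log2 ratios were -0.40, -0.03, -0.59, -0.28 and -0.45 in mice 1 to 5, a mean of -0.35 ± 0.21 (SD, n = 5), with mouse 1 measured on a single array. All 5 mice lay below 0, as did 5.56% of the probes measured in every C3H spleen. The mean lay below that of all but 11.6% of the probes tested in that organ. It was -0.17 with the sign of the Cy5 arrays turned. C3H liver and thymus gave means of 0.0034 ± 0.11 and -0.04 ± 0.07 (SD, n = 5 each), and no mouse of either organ lay farther from 0 than 0.15. In C3H thymus the spread among mice was smaller than that of all but 2.29% of the probes.

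In C3H brain, Cd79b was near 0 in 4 mice, between -0.08 and 0.05, and at -0.51 in mouse 4. The mean of -0.09 ± 0.24 (SD, n = 5) became 0.01 without that mouse.

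The Cd79b ratios of 129SvJ/Iso mice were several times more scattered. In spleen, mice 1, 3, 4 and 5 gave -0.87, -1.71, -1.81 and 0.39, a mean of -1.002 ± 1.016 (SD, n = 4), and mouse 2 had only a Cy5 value, at -1.52. Thus 3 of 4 mice lay below 0, and the SD was larger than that of 71.9% of the probes. In 129SvJ/Iso brain, mice 2 to 5 gave 1.02, -1.77, 0.05 and 1.45, a mean of 0.18 ± 1.43 (SD, n = 4), or 1.76 with the sign of the Cy5 arrays turned. The brain values of this probe spanned both sides of 0 more widely than its values in any C3H organ.

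In 129SvJ/Iso liver, only mouse 1 had Cd79b values in both orientations, with a ratio of 0.49. The single-orientation values of mice 2, 3 and 5 were -2.96, -1.56 and 1.13. The thymus pool gave 0.82, 1.68 and 1.85 on the 3 of 6 arrays with a value, all above 0, while the median over all probes was 0.31 in that group. As repeats of 1 pool, these arrays have no spread over mice.

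The Ms4a1 ratios lay below 0 in most 129SvJ/Iso spleens and above 0 in the 3 C3H livers measured in both orientations. In 129SvJ/Iso spleen its ratios were -0.29, -0.89, 0.07, -0.90 and -0.54 in mice 1 to 5, with a mean of -0.51 ± 0.41 (SD, n = 5), and 4 of 5 mice lay below 0. In C3H spleen the mice were split between both sides of 0, at -0.80, 0.42, 0.09, -0.19 and -0.74. The C3H spleen mean of -0.24 ± 0.53 (SD, n = 5), -0.15 with the sign of the Cy5 arrays turned, lay within 1 SD of 0.

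In C3H liver, mice 1, 4 and 5 gave 0.62, 1.22 and 0.24 for Ms4a1, a mean of 0.69 ± 0.49 (SD, n = 3), above that of 99.4% of the probes tested. Of the 20335 probes tested there, 16721 were measured in every mouse, so most other means rest on more mice. The orientations differed widely in mouse 4 (0.395 in Cy3, 2.038 in Cy5) and mouse 5 (1.213 and -0.737), and less in mouse 1 (0.826 and 0.405). The remaining mice had a Cy5 value only, 0.03 in mouse 2 and 0.22 in mouse 3, both nearer to 0. In 129SvJ/Iso liver the values were -0.93, 0.01 and -0.23 in mice 1, 2 and 5, with a mean of -0.38 ± 0.49 (SD, n = 3). The ranges of the strains did not overlap in liver, which held for 14.4% of all probes measured in at least 3 livers of each strain and for 17.5% of those measured, like Ms4a1, in 3 against 3. The strain difference was called for 0.288% of the liver probes, Ms4a1 not among them.

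In C3H thymus, Ms4a1 lay at -0.17, -0.92, 0.39 and 0.86 in mice 1 to 4, with a mean of 0.04 ± 0.76 (SD, n = 4). In C3H brain its mean of -0.79 ± 1.51 (SD, n = 5) rested on mouse 2, at -3.15, which came from 1 array at -6.10 beside a second array at -0.21. The other mice gave -0.87, 0.9995, -0.66 and -0.25, and the mean without mouse 2 was -0.19. The SD in C3H brain exceeded that of 99.6% of the probes. In 129SvJ/Iso brain the values of mice 2, 3 and 5 were 0.97, -1.41 and 0.41, with a mean of -0.01 ± 1.24 (SD, n = 3), or -0.46 with the sign of the Cy5 arrays turned. In the 129SvJ/Iso thymus pool the 6 arrays ranged from -0.98 to 0.09 with 4 below 0 and a mean of -0.41.

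The Vpreb3 ratios lay slightly and evenly above 0 in the C3H thymus, and its spleen means lay on opposite sides of 0 in the strains. In C3H thymus the ratios were 0.20, 0.36, 0.10, 0.19 and 0.33 in mice 1 to 5, a mean of 0.23 ± 0.11 (SD, n = 5). All 5 lay above 0, as did 4.34% of the probes measured in every C3H thymus, and 90.1% of the probes tested had a lower mean. The T cell list, which holds 14 genes with a probe, had a median of -0.20 in that organ over 21 probes, with 16 below 0. Over all probes 49.71% lay below 0 there. The part of the T cell list in the Vpreb3 ratio was not tested.

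In C3H spleen, Vpreb3 gave -0.18, 0.14, 0.02, 1.28 and 0.37, a mean of 0.33 ± 0.57 (SD, n = 5) that was 0.09 without mouse 4 and -0.26 with the sign of the Cy5 arrays turned. In 129SvJ/Iso spleen it gave -0.0005, -0.83, -0.21, -1.47 and -0.31, a mean of -0.57 ± 0.59 (SD, n = 5), or -0.34 without mouse 4. All 5 mice lay below 0, mouse 1 by next to nothing, as did 3.08% of the probes measured in every 129SvJ/Iso spleen. The strains overlapped only in that mouse 1 of 129SvJ/Iso lay above mouse 1 of C3H.

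The highest group mean of Vpreb3 was in 129SvJ/Iso liver, where mice 1, 2 and 5 gave 0.80, 0.45 and 1.19, a mean of 0.81 ± 0.37 (SD, n = 3). Mouse 3 had a single Cy5 value of -0.42 and was not used. C3H liver gave -0.31, 0.01, 0.32, 0.54 and 0.20, a mean of 0.15 ± 0.32 (SD, n = 5), so that 4 of 5 mice lay above 0. C3H brain gave a mean of 0.04 ± 0.44 (SD, n = 5), with mouse 1 at -0.70 and the other mice between -0.03 and 0.31. 129SvJ/Iso brain gave 0.02, 0.24, -0.53 and -1.07, a mean of -0.33 ± 0.59 (SD, n = 4), or -1.15 with the sign of the Cy5 arrays turned. The 5 arrays of the 129SvJ/Iso thymus pool with a value ranged from -0.80 to 2.20.

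Ordered by group mean, Cd79b ran from 129SvJ/Iso spleen through C3H spleen, brain, thymus and liver to 129SvJ/Iso brain. Ms4a1 ran from C3H brain through 129SvJ/Iso spleen, 129SvJ/Iso liver, C3H spleen, 129SvJ/Iso brain and C3H thymus to C3H liver. Vpreb3 ran from 129SvJ/Iso spleen and brain through C3H brain, liver, thymus and spleen to 129SvJ/Iso liver. For each gene, every pair of neighbours in the order differed by less than the combined SD of the pair. The ends of the Vpreb3 order lay 1.38 apart, against a combined SD of 0.70, while the ends of the Cd79b and Ms4a1 orders lay within theirs (1.19 against 1.75, and 1.48 against 1.59). The order rests partly on C3H spleen and 129SvJ/Iso brain. With the sign of the Cy5 arrays of both turned, 129SvJ/Iso brain became the low end for Vpreb3 at -1.15 and C3H spleen moved from above all other C3H organs to below them, with the ends 1.97 apart against a combined SD of 0.41. For Cd79b the order was the same but 129SvJ/Iso brain lay at 1.76, beyond the combined SD from its neighbour, with the ends 2.76 apart against 1.26. For Ms4a1 the ends did not change.

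Over the mouse and organ values that both genes had, Spearman's rho was 0.29 for Cd79b and Ms4a1 (n = 25), 0.03 for Cd79b and Vpreb3 (n = 29) and -0.10 for Ms4a1 and Vpreb3 (n = 28). These points share mice and arrays, and the correlations are given as a description. In 129SvJ/Iso spleen all 3 means were below 0. In C3H spleen Cd79b and Ms4a1 were below 0 and Vpreb3 above, at 0.33, or 0.09 without mouse 4. With the sign of the Cy5 arrays turned, all 3 were below 0 there, at -0.17, -0.15 and -0.26.

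The fits across all probes (limma against 0, Benjamini-Hochberg adjustment) called no member. They called 0% of the probes at an adjusted p under 0.05 in each of the 7 groups of single mice, so the count of members called cannot be set against a larger background. At an unadjusted p under 0.05 they passed 13.8% of the probes in C3H liver, 5.95% in spleen, 8.13% in thymus and 8.76% in brain. In 129SvJ/Iso the shares were 14.1% in liver, 4.78% in spleen and 5.32% in brain. With all arrays fitted and the mouse as a random block, up to 108 probes were called in a group, and no member was among them.

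The strain comparison (C3H minus 129SvJ/Iso) asks whether the ratio differs between the strains. Age (15 or 16 weeks), the wild-type pool and array quality also differed between them and cannot be told apart from the genetic background. The comparison called 0.288% of the 13201 probes in liver, 38 in all, and 0% in spleen and in brain, and none was a member. The liver count rested on single mice and settings: it was 0 without any 1 of the C3H mice and with weights by strain, and it reached 253 without mouse 3 of 129SvJ/Iso. Unadjusted, 19.3%, 7.03% and 9.9% passed in liver, spleen and brain. The differences are a description, since the same ratios chose the genes. In spleen the C3H mean was higher by 0.65 ± 0.44 (SE) for Cd79b, 0.27 ± 0.33 for Ms4a1 and 0.89 ± 0.37 for Vpreb3. With the sign of the Cy5 arrays of C3H spleen turned, these differences were 0.83, 0.37 and 0.31. In liver it was higher by 1.07 ± 0.39 for Ms4a1, and for Vpreb3 the difference was -0.67 ± 0.29. In brain the differences were -0.28 ± 0.55 for Cd79b, -0.77 ± 0.87 for Ms4a1 and 0.37 ± 0.32 for Vpreb3. With the sign of the Cy5 arrays of 129SvJ/Iso brain turned they were -1.85, -0.32 and 1.19, so their size in brain depends on a direction that is not settled.

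Between organs of a strain, the moderated F-test called 0.216% of 18031 probes in C3H (11.3% unadjusted), 39 in all, and 0% of 9717 in 129SvJ/Iso (17% unadjusted), again with no member called. The organs came from the same mice, and with the mouse as a replicate block the C3H count was 8, while without mouse 4 it was 0. Cd79b could not be fitted in 129SvJ/Iso because of its liver values.

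**Figure D2:**
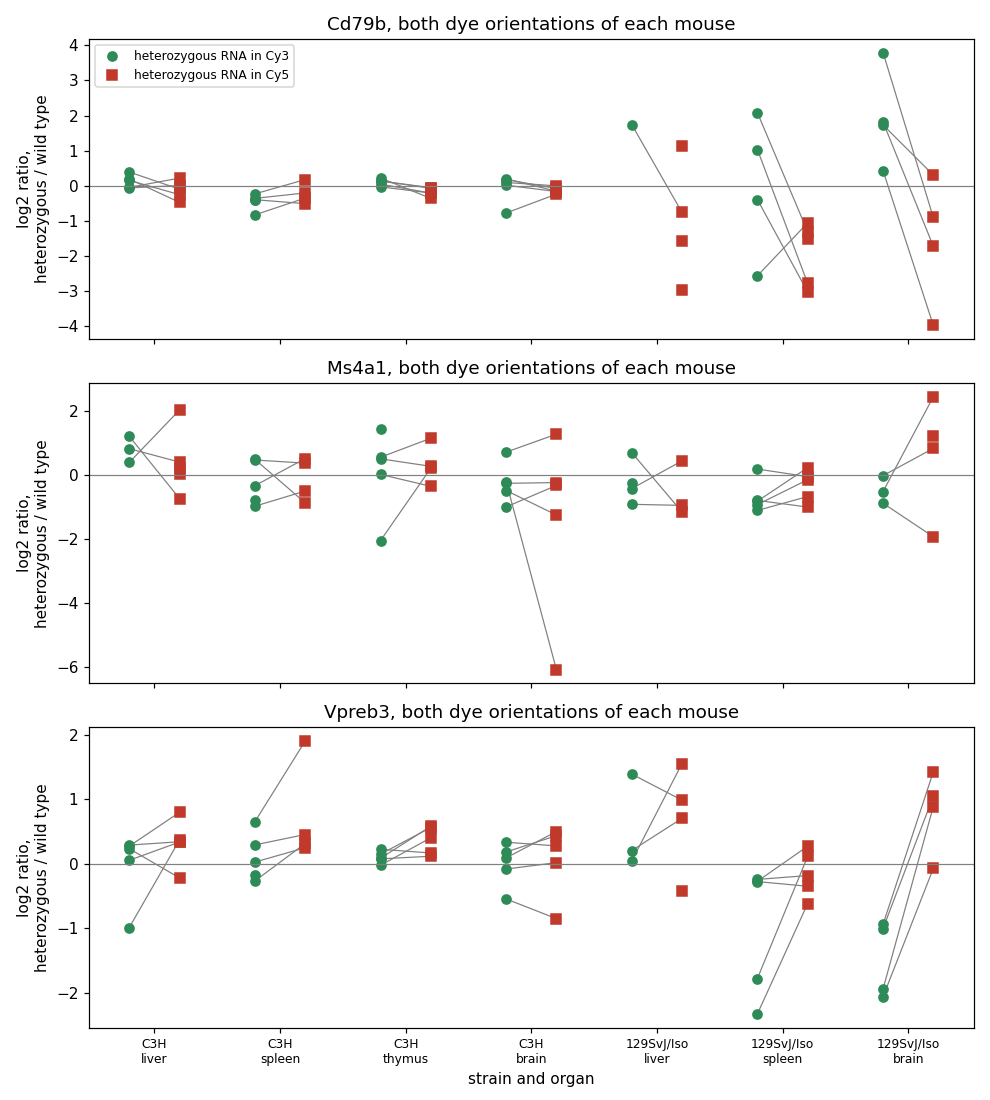
Log2 ratio (heterozygous over wild type, y axis) of each mouse on arrays with its RNA in Cy3 (green circles) and in Cy5 (red squares), joined by a line where both exist, for each strain and organ (x axis). In 129SvJ/Iso brain every line falls for Cd79b and every line rises for Vpreb3, while the C3H lines of Cd79b are short.

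In 129SvJ/Iso brain the ratios of Cd79b and Vpreb3 differed between the dye orientations, in opposite directions. For Cd79b, the Cy3 arrays gave 1.73, 0.43, 1.82 and 3.80 in mice 2 to 5, and the Cy5 arrays gave 0.31, -3.97, -1.72 and -0.90. The Cy3 ratio was higher in 4 of 4 mice, by 3.52 ± 1.48 (SD), a size exceeded by 1.99% of the probes. For Vpreb3 the Cy3 ratio was lower in 4 of 4 mice, with a mean difference of -2.31 ± 0.38 (SD) and a size exceeded by 8.64% of the probes. Of the probes measured in every 129SvJ/Iso brain, 11.1% were higher and 25.6% lower in Cy3 in all mice. These differences are given with no test, since the sign of the Cy5 arrays is not settled in this group. Turned, they would measure the ratio of heterozygous to wild type. That ratio would have means of 1.76 for Cd79b and -1.15 for Vpreb3, smaller in size than the differences. From these ratios alone, a dye effect and a genotype difference cannot be told apart.

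In the other groups the differences were smaller. Cd79b was higher in Cy3 in 5 of 5 C3H thymuses, by 0.28 ± 0.17 (SD), and in 3 of 4 129SvJ/Iso spleens, by 2.08 ± 2.44 (SD). It was lower in Cy3 in 3 of 4 C3H spleens, with a mean difference of -0.23 ± 0.27 (SD). Vpreb3 was lower in Cy3 in 4 of 5 C3H livers, 4 of 4 C3H spleens, 4 of 5 C3H thymuses and 4 of 5 129SvJ/Iso spleens. Of the probes measured in every mouse, 11.3% were higher in Cy3 in all C3H thymuses and 9.04% lower in all C3H spleens, so such agreement was common. Ms4a1 showed no group in which every mouse had the same sign. With the direction taken, Cd79b in C3H spleen was below 0 in both orientations, with means of -0.44 in Cy3 and -0.22 in Cy5. The sign of the Cy5 arrays is not settled in that group, and turned, these means would lie on opposite sides of 0. The dye differences given for C3H spleen depend on the same direction. The 129SvJ/Iso spleen mean of Cd79b was not below 0 in both orientations, at 0.04 in Cy3 and -1.94 in Cy5. Ms4a1 in 129SvJ/Iso spleen was below 0 in both, at -0.69 and -0.33, and so was Vpreb3, at -0.98 and -0.15.

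Other B cell genes were taken from 5 lists: receptor signalling, precursors, transcription factors, surface proteins with antigen presentation, and immunoglobulins with plasma cell genes. Of 76 genes besides the members, 39 had a probe, 56 probes in all. The fits of the 7 groups called 0 of these probes, beside 0 over all probes. At an unadjusted p under 0.05, limma passed 5 of 55 tested in C3H liver, 3 of 47 in spleen, 4 of 52 in thymus and 5 of 50 in brain. In 129SvJ/Iso it passed 3 of 36 in liver, 3 of 47 in spleen and 1 of 46 in brain. The shares over all probes are those given above. The median of the B cell probes was -0.01 in C3H spleen, against -0.005 over all probes there, with 28 of 47 below 0. In 129SvJ/Iso spleen it was -0.13, against -0.01, with 31 of 47 below 0. Of all probes, 50.8% lay below 0 in C3H spleen and 51.34% in 129SvJ/Iso spleen. Without mouse 5 the C3H spleen median was -0.11, and with the sign of the Cy5 arrays turned it was -0.09, with 32 of 47 below 0. In 129SvJ/Iso brain the median was 0.05, or 0.08 with that sign turned.

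**Figure D3:**
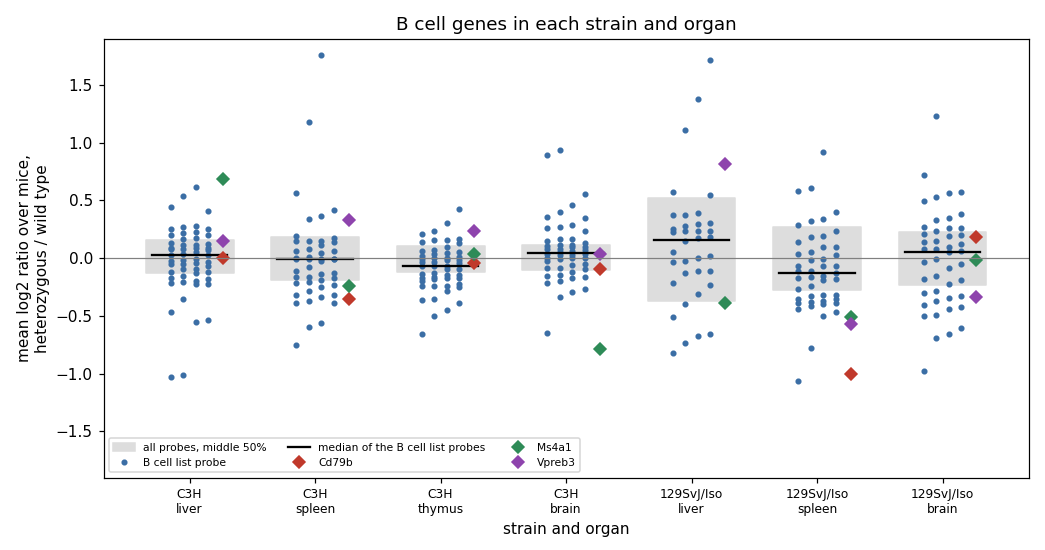
Mean log2 ratio over mice (heterozygous over wild type, y axis) of the probes of the 5 B cell lists (blue points, black bar for their median) and of Cd79b, Ms4a1 and Vpreb3 (diamonds) in each strain and organ (x axis). The grey box holds the middle 50% of all probes. The medians lie inside the box in every group, at -0.01 in C3H spleen and -0.13 in 129SvJ/Iso spleen.

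The receptor signalling list, the one closest to Cd79b, had 9 of 11 probes below 0 in C3H spleen with a median of -0.16, beside 50.8% of all probes below 0. After turning the Cy5 arrays it had 8 of 11 below 0 and a median of -0.09. It had 3 of 11 below 0 in 129SvJ/Iso spleen with a median of 0.05. Cd22 is an inhibitory co-receptor of the B cell receptor. Its ratios in C3H spleen were -0.41, -0.07, -0.45, -0.53 and -0.39 in mice 1 to 5, with a mean of -0.37 ± 0.17 (SD, n = 5, adjusted p = 0.796, limma), or -0.07 with the sign of the Cy5 arrays turned. Blnk, the adaptor that couples the receptor to its downstream enzymes, had a mean of -0.59 ± 0.55 (SD, n = 5, adjusted p = 0.796) with 4 of 5 mice below 0, or -0.32 with that sign turned. Btk of the same list went the other way, at 1.18 ± 1.29 (SD, n = 3, adjusted p = 0.796) with 0 of 3 mice below 0. No turned value is given for Btk. In 129SvJ/Iso spleen, Cd22 had a mean of -0.35 ± 0.57 (SD, n = 5), Blnk one of 0.04 ± 1.17 (SD, n = 4) and Btk one of -0.47 ± 0.41 (SD, n = 5). In 129SvJ/Iso liver Blnk was at 1.11 ± 0.28 (SD, adjusted p = 0.346), above 0 in 4 of 4 mice, as were 9.44% of the probes measured in every 129SvJ/Iso liver.

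Among the transcription factors, Ebf1, which sets up the B cell programme, had 3 probes that disagreed. In C3H spleen 1 of them gave -0.76 ± 0.39 (SD, n = 4, adjusted p = 0.796) with 4 of 4 mice below 0, and another gave -0.21 ± 1.16 (SD, n = 4). Turned, these means were 0.60 and 0.50, so the sign of Ebf1 in C3H spleen follows the direction taken. Tcf3, the gene of the E2A proteins, was at -1.07 ± 0.72 (SD, n = 3, adjusted p = 0.916) in 129SvJ/Iso spleen and at -0.19 ± 0.26 (SD, n = 5), or -0.02 with that sign turned, in C3H spleen. Of the 12 B cell marker genes, 4 had a probe (Blk, Cd22, Ebf1 and Pou2af1). Their probes had a median of -0.21 in both spleens, with 4 of 5 below 0 in C3H and 3 of 4 in 129SvJ/Iso, and none was called. The C3H median was 0.20 with the sign of the Cy5 arrays turned, with 2 of 5 below 0. The markers of plasma cells with a probe (Sdc1 and Xbp1) gave medians of 0.08 in C3H (-0.10 with that sign turned) and -0.22 in 129SvJ/Iso spleen.

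The surface protein list showed 11 of 13 probes below 0 in 129SvJ/Iso spleen (median -0.19) and 7 of 11 in C3H spleen (median -0.01, or -0.14 with the sign of the Cy5 arrays turned). Over all probes the shares below 0 were 51.34% and 50.8%. Cd74, the invariant chain of MHC class II, had 3 probes, and 2 of them were measured in C3H spleen, at -0.21 ± 0.21 and -0.13 ± 0.24 (SD, n = 5 each), or -0.14 and -0.07 with that sign turned. Fcrla, an Fc receptor-like protein of B cells, was at -0.77 ± 0.27 (SD, n = 4, adjusted p = 0.916) on 1 probe in 129SvJ/Iso spleen and at 0.29 ± 0.81 (SD, n = 5) on the other. Among precursor genes, which are nearest to Vpreb3, Dntt (terminal deoxynucleotidyl transferase) was at -0.25 ± 0.20 (SD, n = 5, adjusted p = 0.61) in C3H thymus with 5 of 5 mice below 0, where Vpreb3 was above 0. All mice lay below 0 for 6.9% of the probes measured in every C3H thymus. In spleen Dntt was above 0, at 0.92 ± 0.32 (SD, n = 3, adjusted p = 0.916) in 129SvJ/Iso. It was at 0.41 ± 0.37 (SD, n = 4, adjusted p = 0.796) in C3H spleen, with 1 of 4 mice below 0 and no turned value given. The precursor list had 8 of 12 probes below 0 in C3H thymus, beside 49.71% of all probes, with a median of -0.11. These probes are of 7 genes, several of them of Lef1, and averaged per gene the median was -0.08. Dntt is also a gene of thymocytes, and the part of thymocytes in the values of this list was not tested.

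Of 16 further genes grouped with the MS4A family of Ms4a1, 4 had a probe. Ms4a6c was at -0.38 ± 0.15 (SD, n = 5, adjusted p = 0.796, limma) in C3H spleen, below 0 in 5 of 5 mice, or -0.23 with 4 of 5 below 0 when the sign of the Cy5 arrays was turned. Tmem176b was at -0.22 ± 0.12 (SD, n = 5, adjusted p = 0.36) in C3H liver, also below 0 in 5 of 5, where the 3 Ms4a1 values were above 0. All mice lay below 0 for 5.56% of the probes measured in every C3H spleen and 6.24% of those measured in every C3H liver. The family median lay between -0.12 and 0.26 in the 7 groups (-0.36 in C3H spleen and 0.64 in 129SvJ/Iso brain with that sign turned), and 0 of its probes were called.

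The pattern of each member across mice and organs was compared with that of every annotated probe measured in at least 80% of the member's points. Xrn2 was most like Cd79b (Spearman's rho 0.74, n = 25), followed by Cdyl, Rcl1, Mical3 and Top3b down to 0.69. Glmp was most like Ms4a1 (0.73, n = 26), followed by Trappc9, Commd7, Coro1a and Mrvi1 down to 0.62. Apex2 was most like Vpreb3 (0.73, n = 29), followed by Rmc1, Spata21, Slc1a4 and Cacng4 down to 0.68. None is in the B cell lists. The 99th percentiles of rho over the 9942, 8892 and 9506 probes compared were 0.51, 0.47 and 0.53, and the points share arrays and wild-type pools.

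The promoter of Vpreb3 is shown because its upstream stretch holds the octamer, the element through which OCT factors and their B cell coactivator OBF1 (the product of Pou2af1) act on immunoglobulin promoters. In GRCm38.p6 the stretch chr10:75948220-75948279 on the + strand, from RefSeq, covers bases 80 to 21 before the start of Vpreb3, with the octamer ATTTGCAT in capitals.
Vpreb3: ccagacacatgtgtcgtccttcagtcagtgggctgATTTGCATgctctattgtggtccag
The octamer begins 45 bases before the start. Searched on both strands, it occurred in 570 of 32851 promoter windows of 300 bases (1.74%). A match is a description of these letters. The Pou2af1 probe gave 0.04 ± 0.25 (SD, n = 5) in C3H spleen, or -0.0077 with the sign of the Cy5 arrays turned, and -0.39 ± 0.62 (SD, n = 5) in 129SvJ/Iso spleen, where Vpreb3 gave 0.33 (-0.26 turned) and -0.57, and neither Pou2af1 mean lay farther from 0 than its SD.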

How the data were processed

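The authors deposited 1 table of log2 ratios for 86 2-colour cDNA arrays and 20794 probes. Per the methods, images were read with GenePix Pro and analysed with TM4. The normalization was not given in the sources used here. The array annotation paired 12771 probes with a single gene symbol and 8023 with none. The deposited table carries no depth or signal, so the number of mice and arrays limits precision.

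Each array held 1 constant extreme value (size 14.88 to 17.54, on 19 to 618 probes), whose sign followed the dye. These were set missing, 1 Vpreb3 value among them. Array medians lay between -0.247 and 0.314, and arrays were not centred. Arrays were averaged within dye orientation and then per mouse. A probe with values in at least 3 mice was fitted with limma 3.58.1 in R 4.3.3 (lmFit, eBayes, two-sided, Benjamini-Hochberg, threshold 0.05). The steps were tested on simulated data, where the strain and organ fits called more unshifted probes than the threshold allows. The strain and organ calls given above may therefore hold more false ones than the threshold states, and the cause was not tested. The strain and organ fits weighted by spread, the differences between dye orientations, and the turned signs of differences, orders, lists and other genes were added after the data had been seen.

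The members and lists were chosen with earlier results of these data known. List probes named have the smallest unadjusted p in a group (up to 4 a list). For some of them, but not all, the same probes in other groups and other probes of the same gene are given. Likeness names the 5 probes of highest Spearman rho. Btk, Dntt and Cd74 in spleen, Pou2af1 and the single-orientation values were named after their values were seen. The same mice gave all organs, as mouse identities in the labels show, so organs are paired by mouse. As a check, deviations from group means correlated at a median Spearman rho of 0.00626 over 30 same-mouse pairs in C3H (0.000864 over 120 pairs of different mice) and 0.0124 over 11 in 129SvJ/Iso (-0.000226 over 45). Nothing states separate litters or hybridisation batches.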

Additional observations from a re-analysis of the deposited data

Results flagged for a closer look

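In groups of 4 or more mice, 3 member values lay far from the rest of their group by Dixon's criterion, among 32 sets of values examined. Chance gives such a value in about 1 of 20 sets. Cd79b in C3H brain was at -0.51 in mouse 4, with the other mice between -0.08 and 0.05. The Cy3 minus Cy5 difference of Cd79b in C3H thymus was 0.585 in mouse 5, where the lowest of the group was 0.174. The Cy3 minus Cy5 difference of Ms4a1 in C3H brain was 5.89 in mouse 2, which held the array at -6.10.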

How the results depend on the processing

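In the 7 groups 0 probes were called under each alternative but one. With all arrays and the mouse as a random block, 27 were called in C3H thymus, 4 in C3H brain, 108 in 129SvJ/Iso liver and 3 in 129SvJ/Iso spleen. The 38 calls of the liver strain difference became 13 with arrays centred and 0 with extreme values kept, with any 1 array enough, or with weights by strain, and 0 to 253 without 1 mouse. The brain strain difference gave 0, and 1 with any 1 array enough and 0 to 16 without 1 mouse. With the mouse as replicate block, the 39 calls of the C3H organ difference became 8, and 0 in 129SvJ/Iso stayed 0. Without 1 mouse they were 0 to 27, the 0 without mouse 4. Weights by organ gave 2 calls in 129SvJ/Iso. In each of these fits no member was called. The cause of these differences was not tested.

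Member means moved by over 1 SD mainly with the dye. With heterozygous RNA in Cy3 or in Cy5 alone, Cd79b was 0.13 or -0.12 in C3H liver, 0.10 or -0.18 in C3H thymus and 1.94 or -1.57 in 129SvJ/Iso brain, and 0.0395 in Cy3 in 129SvJ/Iso spleen. Vpreb3 was 0.10 or 0.37 in C3H thymus and -1.49 or 0.82 in 129SvJ/Iso brain. Turning the sign of the Cy5 arrays gave Cd79b 1.76 and Vpreb3 -1.15 in 129SvJ/Iso brain and Vpreb3 -0.26 in C3H spleen. With extreme values kept, Vpreb3 was 0.63 in 129SvJ/Iso brain. Leaving out 1 mouse cannot move a mean by 1 SD, so that measure says nothing about the 88 means without 1 mouse. Of these means, 11 changed sign, all with main means within 1 SD of 0. Over them, Ms4a1 in C3H brain ranged from -1.23 to -0.19 and Vpreb3 in C3H spleen from 0.09 to 0.45. Centring moved 0 of 20. Of 47 list medians under alternatives, 3 moved, in C3H spleen (without mouse 1 or 5, down to -0.11) and 129SvJ/Iso brain.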
